A study of Mus musculus with 15 samples.

Results

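The expression of 9 genes that attach coenzyme A to fatty acids or remove it was measured in mouse eyecups carrying a mutation in Tmem135. The genes were taken by name, as 6 acyl-CoA synthetases (Acsl1, Acsl3, Acsl4, Acsl5, Acsl6 and Acsbg1) and 3 acyl-CoA thioesterases (Acot1, Acot2 and Acot7), out of 55421 genes listed. All 9 passed the filters on low variance and low counts, which left 18979 genes to be tested. The samples were posterior eyecups stripped of the neural retina from 2.5-month-old C57BL/6J mice of both sexes, from which total RNA was taken and poly(A)-selected. There were 4 wild-type (WT) mice, 6 heterozygous Tmem135 FUN025/+ mice and 5 homozygous Tmem135 FUN025/FUN025 mice, with the tissue of 1 mouse in each library. No label gives a mouse's sex, and the mix of males and females that the paper lists differed between the genotypes. The FUN025 allele is inherited and is present in every cell of the animal, so the counts come from a whole-body mutant and from a mixed tissue of pigment epithelium, choroid and sclera. The comparison asked which steps of lipid handling differ in the eyecup between WT and Tmem135 mutant mice.

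Fatty acids that enter a cell are chemically inert until an acyl-CoA synthetase joins them to coenzyme A with energy from ATP. The resulting acyl-CoA can be burned in mitochondria or peroxisomes, lengthened, desaturated, or built into phospholipids, triglycerides and cholesteryl esters. Acyl-CoA thioesterases run the opposite step and release the free acid and coenzyme A, so the balance of both families sets the size of the acyl-CoA pool. The retinal pigment epithelium handles large amounts of fatty acid because it takes up the lipid-rich outer segment tips that photoreceptors shed each day. TMEM135 is a multi-spanning membrane protein linked to mitochondria and peroxisomes.

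Of the synthetases, Acsl1, Acsl3 and Acsl4, were higher in FUN025/FUN025 than in WT eyecups by about the same amount, between 24.6% and 28.6%. These 3 calls were lost with endothelial markers as a covariate, at log2 fold changes of 0.30 (Acsl1), 0.23 (Acsl3) and 0.31 (Acsl4) where 0.36, 0.32 and 0.34 were fitted without it. Those of Acsl4 and Acsl1 were also lost with rod and muscle markers together, at 0.36 and 0.39. Over all genes, calls in FUN025/FUN025 against WT fell from 2666 to 766 with the endothelial covariate and to 675 with rod and muscle markers. Acsl3 was the only member that also differed between FUN025/FUN025 and FUN025/+, where 0.522% of all genes were called. No member passed the test between FUN025/+ and WT, where 13.7% of all genes did. In FUN025/FUN025 against WT 14.0% of all genes were called. Of the 3 thioesterases, the edgeR fit to all 15 libraries without covariates called 0 in any comparison, a count near such shares. Acot7 alone of these had an unadjusted p under 0.05 there, in FUN025/FUN025 against WT where 28.6% of all genes did, and 2 other fits called it lower. The values follow after the start regions of the 3 genes that changed.

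The 250 bases before the annotated starts of Acsl3, Acsl1 and Acsl4 are shown because these genes rose in the same comparison. The sequences are from RefSeq on GRCm38.p6, each read 5′ to 3′ on the strand of its gene, and capitals mark matches to the motifs searched. The motifs, searched on both strands, were the GC box (GGGCGG), the CCAAT box (CCAAT), the sterol regulatory element (TCACNCCAC), the peroxisome proliferator response element (2 copies of AGGTCA with 1 base between them), the E-box (CACGTG), the cAMP response element (TGACGTCA) and the TATA box (TATAAA). Acsl3 has its window at chr1:78657575-78657824 on the + strand. Acsl1 has windows at chr8:46470787-46471036 and chr8:46490716-46490965, both on the + strand, for 2 annotated starts. Acsl4 has its window at chrX:142390536-142390785 on the - strand.
Acsl3: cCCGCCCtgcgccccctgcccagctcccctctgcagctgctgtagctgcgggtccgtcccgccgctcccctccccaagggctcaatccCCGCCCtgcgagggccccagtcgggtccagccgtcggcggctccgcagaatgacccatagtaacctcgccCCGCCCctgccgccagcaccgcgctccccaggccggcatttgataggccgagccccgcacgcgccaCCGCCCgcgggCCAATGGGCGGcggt
Acsl1, upstream start: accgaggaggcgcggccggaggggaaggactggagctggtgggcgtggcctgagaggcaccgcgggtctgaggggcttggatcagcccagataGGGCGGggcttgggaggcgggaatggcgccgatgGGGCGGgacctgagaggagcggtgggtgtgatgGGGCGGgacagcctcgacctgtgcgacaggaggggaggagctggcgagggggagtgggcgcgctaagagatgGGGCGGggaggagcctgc
Acsl1, downstream start: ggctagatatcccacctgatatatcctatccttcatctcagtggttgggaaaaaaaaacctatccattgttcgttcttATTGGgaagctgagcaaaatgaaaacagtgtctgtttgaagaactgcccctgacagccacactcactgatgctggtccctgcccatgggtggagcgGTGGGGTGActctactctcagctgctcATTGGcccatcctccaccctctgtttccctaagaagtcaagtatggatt
Acsl4: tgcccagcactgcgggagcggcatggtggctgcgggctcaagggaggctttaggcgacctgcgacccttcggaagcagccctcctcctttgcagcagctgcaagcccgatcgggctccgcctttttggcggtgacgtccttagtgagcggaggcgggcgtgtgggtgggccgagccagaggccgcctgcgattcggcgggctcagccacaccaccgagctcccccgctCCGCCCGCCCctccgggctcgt

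The Acsl3 window held 5 GC boxes and 1 CCAAT box; the last GC box starts directly after the CCAAT box. The window of the upstream Acsl1 start held 4 GC boxes, and the Acsl4 window held 2 GC boxes that overlap each other. The downstream Acsl1 start had no GC box, 2 CCAAT boxes and 1 match to the sterol regulatory element on the reverse strand. GC boxes were found in 32.7% of the 32851 windows of this length, CCAAT boxes in 33.8% and the sterol element in 1.05%. The E-box, found in 6.02% of windows, and the TATA box, found in 12.4%, had no match in these 4 windows, and neither did the cAMP response element (1.55%) or the peroxisome proliferator repeat (0.0335%). The G and C content was 75.6% for Acsl3, 72.0% and 48.4% for the Acsl1 starts and 70.8% for Acsl4, against a median of 52.4% over all windows. These matches describe the letters in the windows and say nothing about binding.

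Levels are given as CPM, the count of a gene per 1000000 counts of its library, with library totals scaled by the trimmed mean of M-values. Total counts were 18094977 to 20029919 in WT libraries, 10903183 to 13456349 in FUN025/+ libraries and 11053535 to 15038383 in FUN025/FUN025 libraries. Every WT library was deeper than every mutant library, and no batch is labelled, so a batch shared by the WT mice cannot be told apart from their genotype. Genes were tested with edgeR's quasi-likelihood test, and a gene was called where its Benjamini-Hochberg adjusted p over all 18979 genes was under 0.05. Tmem135 itself was at 64.0 ± 2.99 CPM (SD, n = 4) in WT, 75.0 ± 7.30 CPM (n = 6) in FUN025/+ and 88.3 ± 4.57 CPM (n = 5) in FUN025/FUN025 libraries. The FUN025 allele is a point mutation and not a deletion, so this level does not check the labels. The 10 markers of the pigment epithelium were present in every library, with sums of 17862 to 23916 CPM that overlapped between the genotypes.

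Acsl3 encodes a long-chain synthetase of the endoplasmic reticulum and lipid droplets that supplies acyl-CoA for droplet growth and phospholipid synthesis. It was at 115, 119, 109 and 117 CPM in the WT libraries, and at 101 (lowest), 111 (median) and 126 CPM (highest) in the FUN025/+ libraries. The FUN025/FUN025 libraries held 142, 146, 147, 139 and 143 CPM. Every FUN025/FUN025 library was above every library of both other genotypes, while WT and FUN025/+ overlapped. The log2 fold change was 0.32 (SE 0.057, edgeR adjusted p = 0.00108) for FUN025/FUN025 against WT and 0.36 (SE 0.051, edgeR adjusted p = 7.45e-04) against FUN025/+. Between FUN025/+ and WT it was -0.04 (SE 0.054, edgeR adjusted p = 0.638). With endothelial markers as a covariate the difference from WT was no longer called (0.23, edgeR adjusted p = 0.130), and that from FUN025/+ was (0.32, adjusted p = 0.0217).

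Acsl4 encodes the synthetase that prefers arachidonic acid and other polyunsaturated fatty acids, and its product feeds the phospholipids that are oxidised in ferroptosis. The WT libraries held 45.2, 44.6, 40.2 and 47.5 CPM, and the FUN025/+ libraries 48.3 (lowest), 49.2 (median) and 52.7 CPM (highest). The FUN025/FUN025 libraries held 54.7, 56.6, 51.3, 57.0 and 62.1 CPM. All mutant libraries were above all WT libraries, and of the FUN025/FUN025 libraries 1 fell within the range of FUN025/+. The log2 fold change was 0.34 (SE 0.058, edgeR adjusted p = 6.42e-04) for FUN025/FUN025 against WT. For FUN025/+ against WT it was 0.16 (SE 0.056), which did not pass (edgeR adjusted p = 0.0630) although the groups did not overlap. With an offset for GC content that difference was 0.050 (edgeR adjusted p = 0.628). For FUN025/FUN025 against FUN025/+ it was 0.18 (SE 0.052, edgeR adjusted p = 0.225). Acsl4 means were thus lowest in WT, intermediate in FUN025/+ and highest in FUN025/FUN025, and only the outer difference passed.

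Acsl1 encodes the synthetase of the mitochondrial outer membrane and endoplasmic reticulum that channels fatty acids to oxidation in muscle and heart and to storage in fat. It was at 82.6, 70.4, 79.1 and 80.5 CPM in WT and at 77.8 (lowest), 85.6 (median) and 100.5 CPM (highest) in FUN025/+ libraries. The FUN025/FUN025 libraries held 103.4, 92.5, 104.3, 98.1 and 104.1 CPM. The FUN025/FUN025 libraries lay above all WT libraries, and the FUN025/+ libraries spread across both ranges. The log2 fold change for FUN025/FUN025 against WT was 0.36 (SE 0.077, edgeR adjusted p = 0.00437). It was 0.17 (SE 0.074, edgeR adjusted p = 0.137) for FUN025/+ against WT and 0.19 (SE 0.069, edgeR adjusted p = 0.509) for FUN025/FUN025 against FUN025/+.

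**Figure D1:**
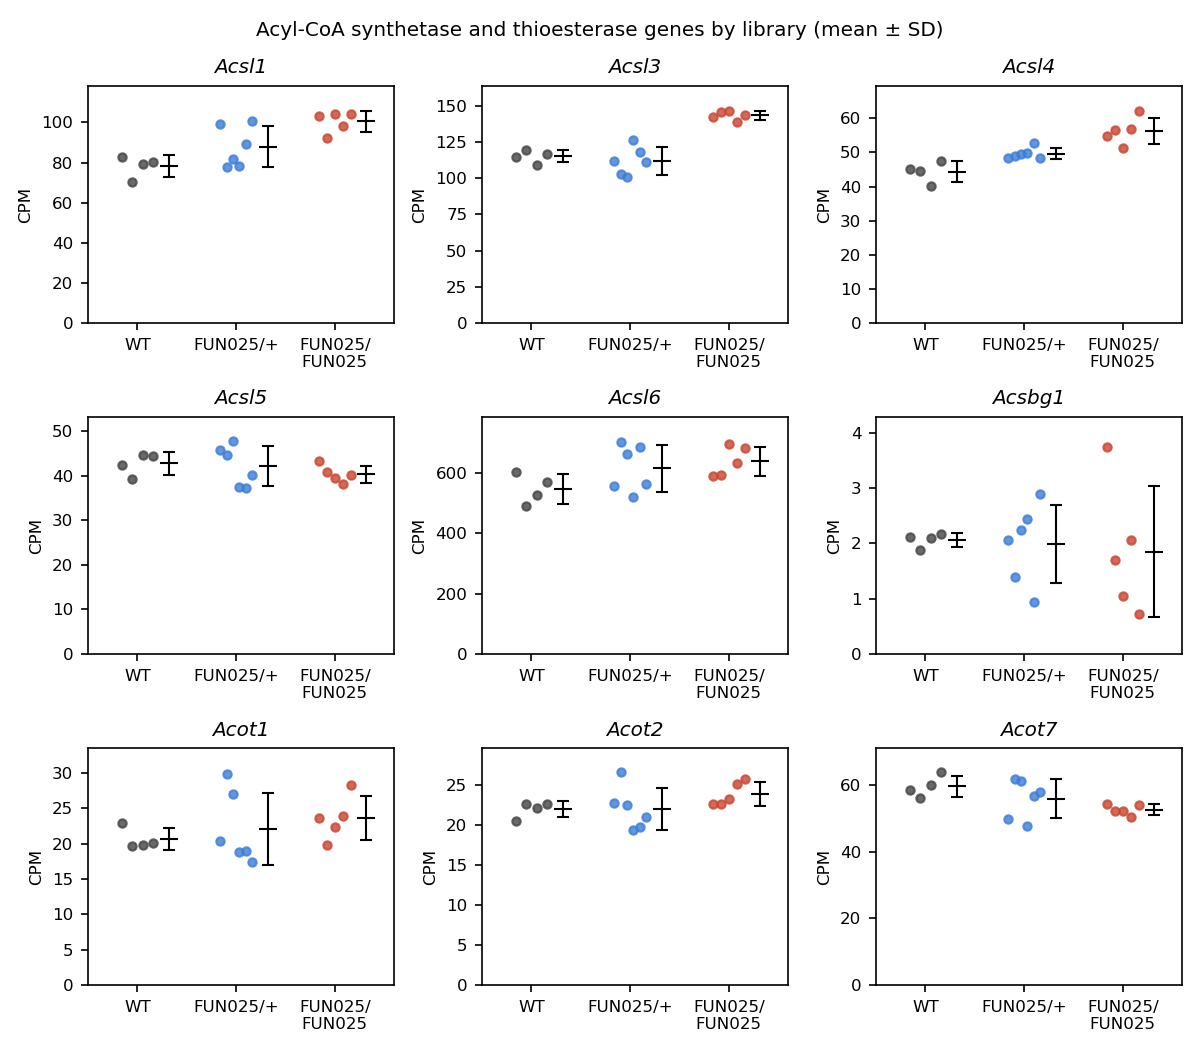
Level of each of the 9 genes in CPM (vertical axes, each from 0) in WT, FUN025/+ and FUN025/FUN025 libraries; each point is 1 library, and the bar beside it gives the mean and SD. The FUN025/FUN025 libraries of Acsl3, from 139 to 147 CPM, lie above all others, those of Acsl1 and Acsl4 lie above WT, and those of Acot7 lie below WT.

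Acsl6, the synthetase of brain and retina that retains docosahexaenoic acid in membranes, was the most abundant member. The WT libraries held 605, 491, 528 and 569 CPM, the FUN025/+ libraries 521 (lowest), 613 (median) and 704 CPM (highest), and the FUN025/FUN025 libraries 590, 593, 695, 635 and 683 CPM. WT overlapped both mutant genotypes, and of the WT libraries only replicate 1 reached the range of FUN025/FUN025. The log2 fold change was 0.17 (SE 0.087, edgeR adjusted p = 0.211) for FUN025/+ and 0.22 (SE 0.090, edgeR adjusted p = 0.111) for FUN025/FUN025 against WT, so neither difference passed. With the pigment epithelium markers as a covariate, chosen after seeing the data, Acsl6 was called higher in FUN025/FUN025 than in WT at 0.34 (edgeR adjusted p = 8.23e-04). Of the 17 alternatives other than leaving out a library, only this 1 called that difference, and the log2 fold changes ran from 0.12 to 0.39. With rod markers as a covariate FUN025/+ against WT was at 0.062 (edgeR adjusted p = 0.724). Acsl5, a mitochondrial and reticular synthetase best known from intestine and liver, was at 42.8 ± 2.48 CPM (SD, n = 4) in WT, 42.2 ± 4.53 CPM (n = 6) in FUN025/+ and 40.4 ± 1.89 CPM (n = 5) in FUN025/FUN025. Its range of 37.3 to 47.8 CPM in FUN025/+ covered both other groups, and its log2 fold changes were -0.02, -0.08 and -0.06 in the 3 comparisons with SEs of 0.070, 0.073 and 0.067. Acsbg1, the bubblegum synthetase of very long chains in brain and steroid-producing tissue, was low, at 8 to 57 counts per library. Its mean was 2.07 ± 0.126 CPM in WT, 1.99 ± 0.711 CPM in FUN025/+ and 1.85 ± 1.18 CPM in FUN025/FUN025. Its log2 fold change for FUN025/FUN025 against WT was -0.13 with an SE of 0.355, larger than the change of Acsl3.

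Acot7 encodes the cytosolic thioesterase that is abundant in neurons. Its level was 58.5, 56.1, 60.0 and 63.8 CPM in WT and 47.7 (lowest), 57.1 (median) and 61.9 CPM (highest) in FUN025/+ libraries. The FUN025/FUN025 libraries held 54.4, 52.0, 52.2, 50.3 and 54.1 CPM, all below the WT libraries. The log2 fold change for FUN025/FUN025 against WT was -0.18 (SE 0.069), and it did not pass the test (edgeR adjusted p = 0.0911). It was -0.09 (SE 0.066) for FUN025/+ against WT and -0.09 (SE 0.063) for FUN025/FUN025 against FUN025/+. Acot7 was called lower in FUN025/FUN025 against WT when only these genotypes were fitted (log2 fold change -0.18, edgeR adjusted p = 0.0412) and when rod markers entered the fit as a covariate (-0.29, adjusted p = 0.00626), and with the latter it was also called in FUN025/+ against WT (-0.22, adjusted p = 0.0365). Other fits gave smaller differences for FUN025/FUN025 against WT, at -0.05 with endothelial markers (adjusted p = 0.825) and -0.09 with a GC offset (adjusted p = 0.396). With the GC offset FUN025/+ against WT was at -0.0070 (adjusted p = 0.961), so the call on Acot7 and its size depended on the fit.

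Acot1 and Acot2 are neighbouring genes on chromosome 12 that encode the cytosolic and the mitochondrial form of a long-chain thioesterase, and both are known targets of PPAR-alpha in liver. Acot1 was at 20.6 ± 1.55 CPM (SD, n = 4) in WT, 22.1 ± 5.09 CPM (n = 6) in FUN025/+ and 23.6 ± 3.08 CPM (n = 5) in FUN025/FUN025. Acot2 was at 22.0 ± 0.991, 22.1 ± 2.62 and 23.9 ± 1.47 CPM in the same order. The genotypes overlapped for both, and the log2 fold changes for FUN025/FUN025 against WT were 0.19 (SE 0.143) for Acot1 and 0.12 (SE 0.083) for Acot2. The wide spread of Acot1 in FUN025/+ came from replicates 2 and 3, at 29.8 and 27.0 CPM, beside 17.4 to 20.4 CPM in the other libraries. Of the 31-base stretches of their exons, 16.7% of Acot1 also occur in Acot2 and 29.9% of Acot2 in Acot1. Over all other genes the shares were 22.8% and 37.8%. Reads may thus have been split between the genes or left out of the counts. The sum of Acot1 and Acot2 was 42.6 ± 0.634 CPM in WT, 44.1 ± 7.46 CPM in FUN025/+ and 47.5 ± 4.34 CPM in FUN025/FUN025. A split between these genes leaves this sum alone, but reads left out of the counts would be missing from it.

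**Figure D2:**
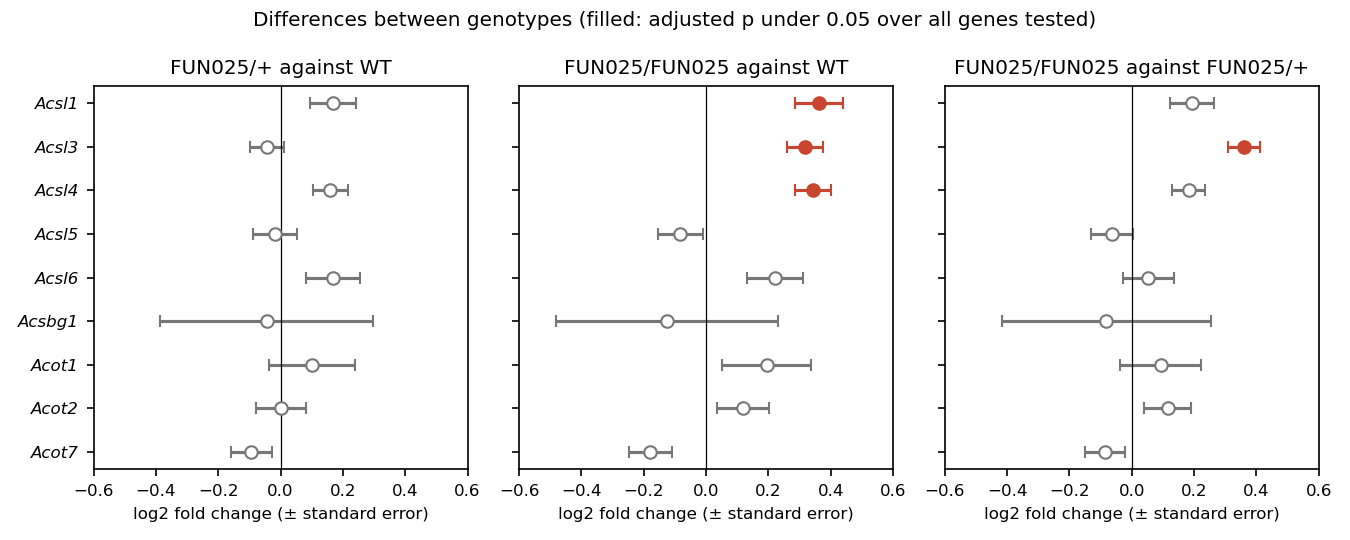
Fitted log2 fold change of each gene (horizontal axes) with its standard error in the 3 comparisons; filled points had an adjusted p under 0.05 over all genes tested. Acsl1, Acsl3 and Acsl4 are filled between FUN025/FUN025 and WT at 0.36, 0.32 and 0.34, Acsl3 alone is filled between FUN025/FUN025 and FUN025/+, and no gene is filled between FUN025/+ and WT.

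Between FUN025/FUN025 and WT, 3 of the 9 members were called higher and 0 lower, beside 14.0% of all genes called in either direction, 7.03% called higher and 7.02% called lower. Between FUN025/+ and WT, edgeR called 0 of the 9, beside 13.7% of all genes (7.09% higher and 6.61% lower). At an unadjusted p under 0.05 that comparison held 2 of 9 members, Acsl4 and Acsl1, beside 28.8% of all genes, and DESeq2 and limma-voom also called 0. Between FUN025/FUN025 and FUN025/+, 1 of the 9 was called, higher in FUN025/FUN025, beside 0.522% of all genes (0.327% higher and 0.195% lower). Groups did not overlap for 4 members between FUN025/FUN025 and WT (background 14.8%), for 1 between FUN025/+ and WT (background 10.9%) and for 1 between FUN025/FUN025 and FUN025/+ (background 1.12%). The median log2 fold change of the members was 0.0025, 0.19 and 0.093 for FUN025/+ against WT, FUN025/FUN025 against WT and FUN025/FUN025 against FUN025/+, where the medians over all genes were -0.0023, -0.0071 and -0.0040. Both comparisons with WT used the same WT libraries.

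To compare levels between genes, CPM was divided by the summed exon length of each gene. In WT the order per kilobase was Acsl6 (55.3 CPM per kb), Acot7 (28.1), Acsl3 (26.4), Acot2 (10.04), Acsl5 (8.79), Acsl4 (8.21), Acsl1 (7.46), Acot1 (5.26) and Acsbg1 (0.573 CPM per kb). Neighbours in this order whose libraries overlapped were Acot7 and Acsl3, Acsl5 and Acsl4, and Acsl4 and Acsl1. Acsl6 was 1.97 times Acot7, with no overlap. In FUN025/FUN025 Acsl3 took the second place at 32.9 ± 0.700 CPM per kb (SD, n = 5), apart from Acot7 at 24.8 ± 0.784 CPM per kb, and the mean of Acsl5 was below those of Acsl4 and Acsl1. The libraries of Acsl5 and Acsl1 overlapped there, as those of Acsl5 and Acsl4 did in WT. All exons of a gene were counted in its length whether or not the eyecup uses them, so the order rests on the annotated models, which run from 2124 bases for Acot7 to 10483 bases for Acsl1.

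**Figure D3:**
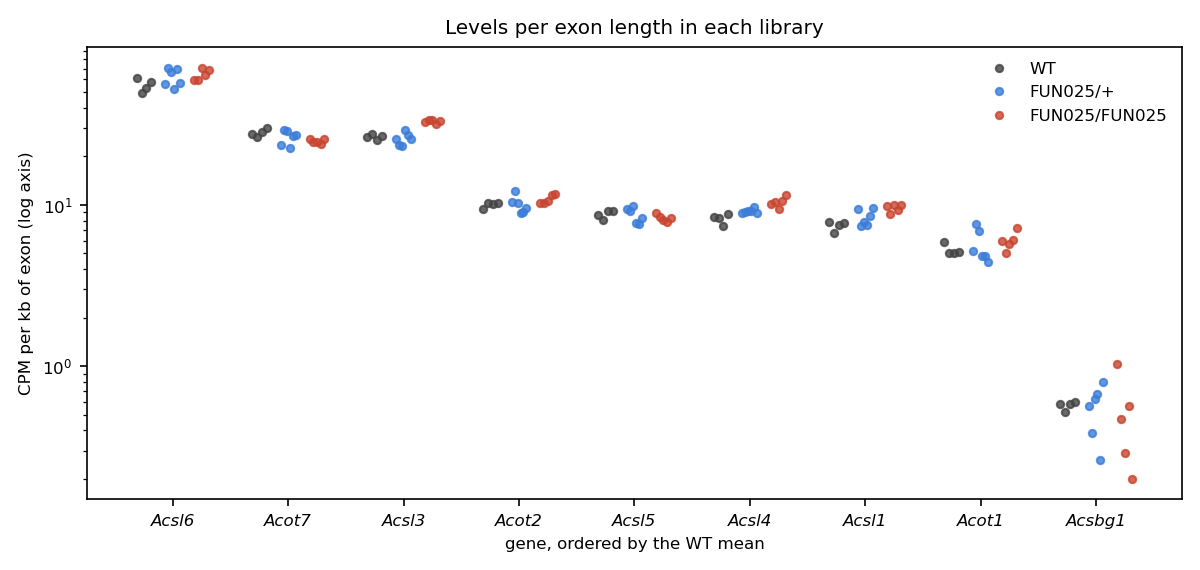
Level of each gene in CPM per kilobase of exon on a log axis, with genes ordered by their WT mean and each point 1 library. Acsl6 stands highest in all genotypes, Acsbg1 lies lowest, and Acsl3 passes Acot7 in FUN025/FUN025 libraries.

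The 5 long-chain synthetases added up to 106 ± 5.88 CPM per kb in WT, 114 ± 6.69 in FUN025/+ and 126 ± 5.30 in FUN025/FUN025. Acsl6 made up 52.0 ± 1.97%, 54.3 ± 3.82% and 51.2 ± 1.86% of this sum, and Acsl3 made up 24.9 ± 1.70%, 22.6 ± 2.85% and 26.2 ± 1.08%. The share of Acsl5 was 8.29 ± 0.514% in WT, 7.62 ± 0.842% in FUN025/+ and 6.62 ± 0.508% in FUN025/FUN025. Without Acsl6 the other 4 summed to 50.9 ± 1.34, 51.9 ± 1.84 and 61.2 ± 1.04 CPM per kb. The lowest FUN025/FUN025 library, at 59.6, lay above the highest of the other genotypes, at 53.5. Every FUN025/FUN025 library held a smaller Acsl5 share, at most 7.34%, than any WT library, at least 7.76%, while the Acsl6 and Acsl3 shares overlapped. These sums and shares are given as a description since they include the genes tested above.

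**Figure D4:**
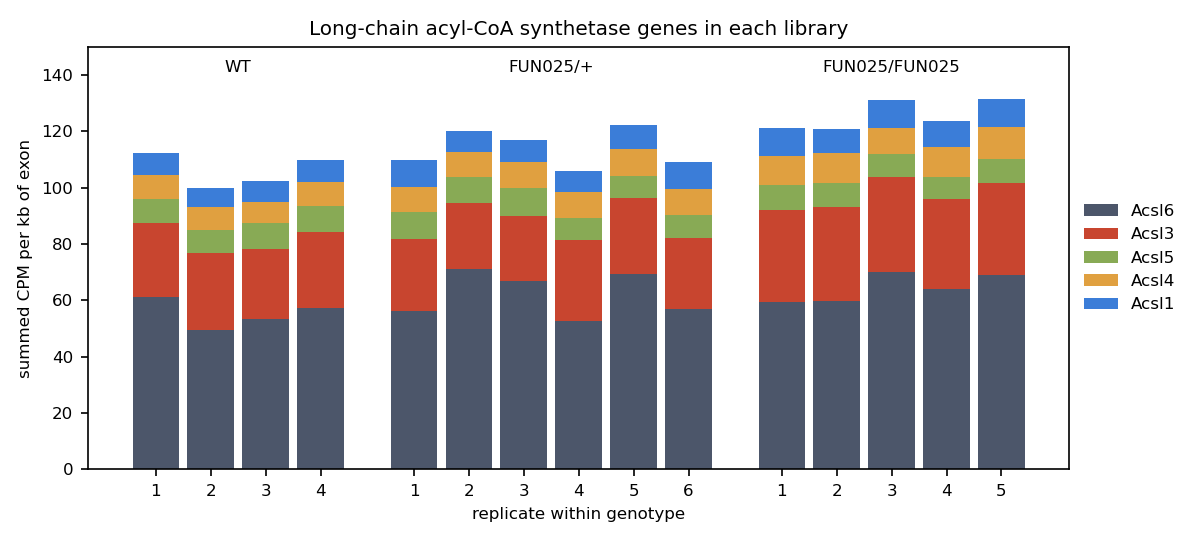
Summed level of the 5 long-chain synthetase genes in each library, in CPM per kilobase of exon, stacked by gene and grouped by genotype. The FUN025/FUN025 bars reach 121 to 131 CPM per kb and the WT bars 99.96 to 112, and Acsl6 is the largest block in every bar.

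Some exons of the synthetases lie over exons of other genes, and the strand setting of the counting is not given in the sources used here. Acsl3 shares 244 exon bases with Utp14b on the same strand, a retrogene inside the Acsl3 locus, and 4.22% of its 31-base stretches. Utp14b was at 11.9, 17.2 and 20.0 CPM in WT, FUN025/+ and FUN025/FUN025, a log2 fold change of 0.53 (edgeR adjusted p = 0.00372) for FUN025/+ and 0.75 (adjusted p = 2.11e-04) for FUN025/FUN025 against WT. The Acsl3 means were 115, 112 and 143 CPM in the same order, and the part of the shared bases in them was not tested. Acsl6 shares 202 exon bases with Gm12224 on the opposite strand, which was at 115, 153 and 157 CPM and was called higher against WT in FUN025/+ (0.42, edgeR adjusted p = 0.00672) and FUN025/FUN025 (0.45, adjusted p = 0.00476). Acsl5 shares 404 exon bases with Zdhhc6 on the opposite strand, which was not called, and Acsl1 shares 1039 with Gm45244, which did not pass the filter. Without strand, reads from these stretches cannot be assigned to either partner. Acsl4 and Acsbg1 had no such overlap, and only 0.0182% of the 31-base stretches of Acsl4 occur in another gene.

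The members lie on different chromosomes except for the Acot pair. On GRCm38 with GENCODE M21, Acsl1 (ENSMUSG00000018796) spans chr8:46471037-46536051, Acsl3 (ENSMUSG00000032883) chr1:78657825-78707743, Acsl4 (ENSMUSG00000031278) chrX:142317993-142390535, Acsl5 (ENSMUSG00000024981) chr19:55251938-55297720 and Acsl6 (ENSMUSG00000020333) chr11:54303798-54364756. Acsbg1 (ENSMUSG00000032281) spans chr9:54604877-54661870, Acot1 (ENSMUSG00000072949) chr12:84009490-84018371, Acot2 (ENSMUSG00000021226) chr12:83987861-83993873 and Acot7 (ENSMUSG00000028937) chr4:152178134-152271855. Acsl4 is on the X chromosome, and its FUN025/+ libraries, from mice of unlabelled sex, had the smallest spread of the 3 genotypes with an SD of 1.62 CPM. The mix of sexes differed between the genotypes, and its part in the Acsl4 level was not tested.

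The rest of the pathway was described by 3 lists. Of 19 other acyl-CoA synthetase genes, 13 were tested, and 1 was called in FUN025/FUN025 against WT, where 14.0% of all genes were called. This was Aacs, the cytosolic enzyme that activates acetoacetate for lipid synthesis, with 19.5 ± 0.715 CPM in WT, 19.6 ± 3.20 CPM in FUN025/+ and 25.8 ± 1.77 CPM in FUN025/FUN025 and a log2 fold change of 0.41 (SE 0.101, edgeR adjusted p = 0.0123). Like Acsl3, Aacs was at the WT level in FUN025/+, and its difference between FUN025/FUN025 and FUN025/+ was 0.40 (SE 0.092, adjusted p = 0.0626). The median log2 fold change of the 13 for FUN025/FUN025 against WT was 0.029.

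Of 20 other acyl-CoA thioesterase genes, 13 were tested, and 1 was called, in FUN025/+ against WT, where 13.7% of all genes were called. Acnat1, a peroxisomal acyltransferase of the thioesterase family, was called higher in FUN025/+ than in WT, with 5.79 ± 0.450 against 4.04 ± 0.964 CPM (log2 fold change 0.52, SE 0.165, edgeR adjusted p = 0.0433). In FUN025/FUN025 Acnat1 was at 4.72 ± 0.998 CPM. The median over these 13 was 0.028 for FUN025/FUN025 against WT.

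Of 10 genes for acyl-CoA and fatty acid binding proteins, 9 were tested. In FUN025/+ against WT 4 were called (13.7% of all genes), in FUN025/FUN025 against WT 1 (14.0% of all genes) and between the mutant genotypes 1 (0.522% of all genes). Acbd5, the peroxisomal protein that tethers peroxisomes to the endoplasmic reticulum and presents very long acyl-CoA, was higher than WT by 0.23 on the log2 scale in both FUN025/+ (SE 0.058, edgeR adjusted p = 0.0133) and FUN025/FUN025 (SE 0.060, adjusted p = 0.0161), with 74.2 ± 6.90, 87.1 ± 4.44 and 87.1 ± 4.35 CPM. Dbi, the acyl-CoA binding protein of the cytosol, was at 128 ± 12.2 CPM in WT, 95.1 ± 10.2 CPM in FUN025/+ and 124 ± 7.95 CPM in FUN025/FUN025. Dbi was therefore lower in FUN025/+ than in WT (log2 fold change -0.43, SE 0.076, edgeR adjusted p = 0.00108) and higher in FUN025/FUN025 than in FUN025/+ (0.38, SE 0.072, adjusted p = 0.0140). Fabp4, a fatty acid carrier of fat cells and capillary endothelium, was lower in FUN025/+ than in WT (-0.97, SE 0.242, adjusted p = 0.0166), and so was Acbd4 (-0.19, SE 0.060, adjusted p = 0.0450). Fabp4 ran from 12.5 to 27.6 CPM in WT and from 6.39 to 12.7 CPM in FUN025/+, so the ranges met at their ends.

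Fewer cells of a type and less RNA per cell cannot be told apart in bulk tissue, and several marker lists moved with genotype. The 8 endothelial markers summed to 1032 to 1192 CPM in WT, 811 to 1111 CPM in FUN025/+ and 731 to 913 CPM in FUN025/FUN025, and 6 of 8 were called lower in FUN025/FUN025 and 3 of 8 in FUN025/+ than in WT. All 8 were also negative in FUN025/FUN025 against FUN025/+, with a median of -0.17 on the log2 scale. The 14 skeletal muscle markers summed to 6273 to 11597 CPM in WT, 3384 to 8667 CPM in FUN025/+ and 5149 to 6272 CPM in FUN025/FUN025, and 3 of 14 were called lower in each mutant genotype. The 16 rod markers summed to 833 to 3307 CPM in WT, where replicate 2 was highest, 654 to 1370 CPM in FUN025/+ and 618 to 1011 CPM in FUN025/FUN025. The median rod sums were 1238, 776 and 766 CPM in the same order. In both mutant genotypes all 14 muscle markers, all 16 rod markers, all 6 tested fat cell markers, all 5 tested red cell markers and 10 of 11 tested inner retinal neuron markers had negative fold changes against WT. On the log2 scale the medians, FUN025/+ before FUN025/FUN025, were -0.63 and -0.53 for muscle, -1.76 and -1.80 for rods, -0.99 and -0.35 for fat cells, -1.16 and -0.41 for red cells and -0.53 and -0.72 for inner neurons. Beside the muscle markers, 1 rod marker was called lower in FUN025/FUN025, and 2 inner neuron markers in FUN025/+ and 1 in FUN025/FUN025. The 8 macrophage markers summed to 489 to 617, 472 to 709 and 547 to 613 CPM in WT, FUN025/+ and FUN025/FUN025, and the 8 fat cell markers to 33.6 to 57.8, 28.0 to 35.2 and 29.8 to 44.4 CPM. No marker of these lists was at 0 in all libraries of a group, and their part in the results was not tested beyond the fits that follow.

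With the mean level of the endothelial markers as a covariate, chosen after seeing the data, none of the 3 calls between FUN025/FUN025 and WT passed. The log2 fold changes were then 0.23 for Acsl3 (edgeR adjusted p = 0.130), 0.31 for Acsl4 (adjusted p = 0.0642) and 0.30 for Acsl1 (adjusted p = 0.158). Over all genes, 766 were called in that comparison with this covariate, where 2666 were called without it. WT and FUN025/FUN025 libraries did not overlap in their endothelial sums, so this covariate and the genotype cannot be told apart in that comparison. Between FUN025/FUN025 and FUN025/+, Acsl3 was called with this covariate too, at 0.32 (edgeR adjusted p = 0.0217). With rod and muscle markers together Acsl3 was called at 0.50 (adjusted p = 0.00369), while Acsl4 at 0.36 (adjusted p = 0.0648) and Acsl1 at 0.39 (adjusted p = 0.126) were not. These 3 values are for FUN025/FUN025 against WT, where that fit called 675 of all genes. With rod or muscle markers alone all 3 passed.

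**Figure D5:**
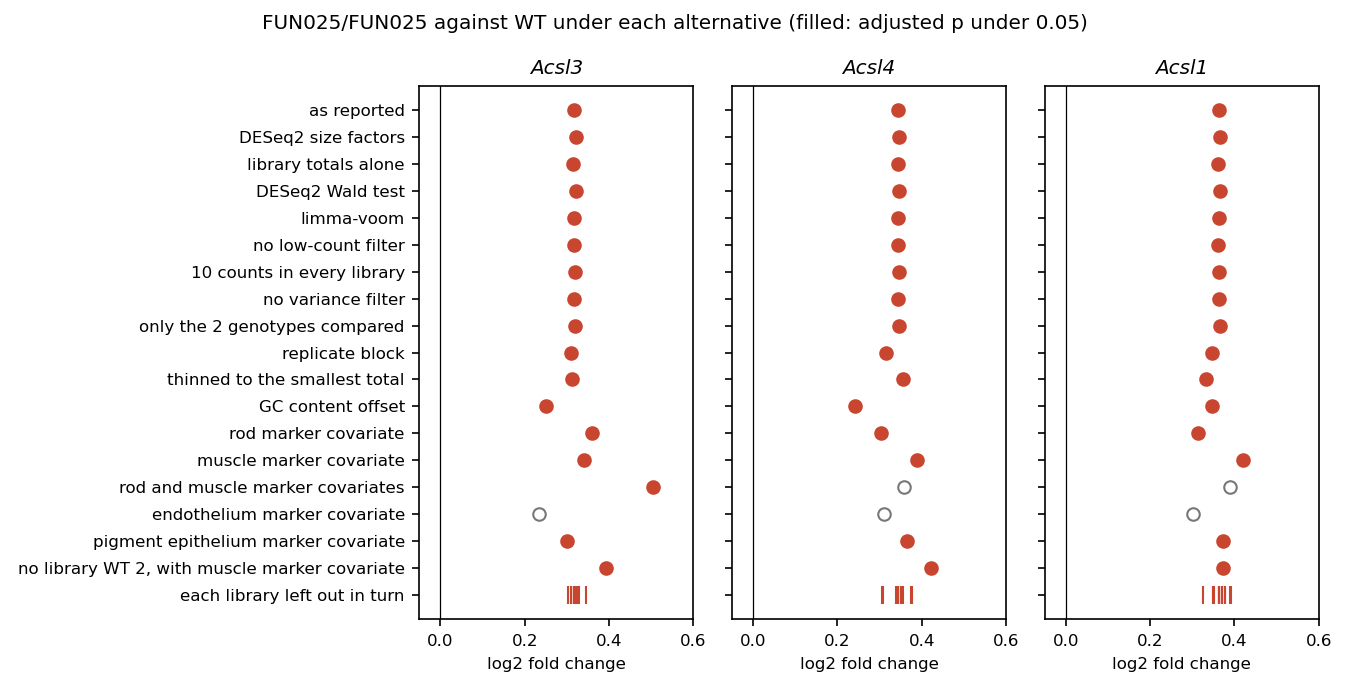
Log2 fold change of Acsl3, Acsl4 and Acsl1 between FUN025/FUN025 and WT (horizontal axes) under each alternative, filled where the adjusted p was under 0.05; the lowest line has a tick for the fit without each of the 15 libraries in turn. All values lie above 0, and the open points are those with the endothelial covariate for all 3 genes and those with rod and muscle covariates together for Acsl4 and Acsl1.

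After removal of the genotype means, members varied together to different degrees over the 15 libraries. The highest Pearson's r of log2 CPM among member pairs was 0.72 for Acot1 and Acot2, which share sequence, followed by 0.66 for Acsl6 and Acot7. Acsl3 ran opposite to Acsl5 (r = -0.75), Acot7 (-0.69) and Acot2 (-0.68). Among 17587 genes, the closest to Acsl6 were Padi2 (r = 0.97) and Myrf (0.95), a transcription factor of the pigment epithelium and of oligodendrocytes. The closest to Acsl1 were Uaca (0.88) and Sc5d (0.87), the latter a late enzyme of cholesterol synthesis. The closest to Acsl3 were Map2k3os (0.88) and 4930570G19Rik (0.85), and the closest to Acsl4 were Tdrkh (0.87) and Gm15684 (0.85). For the remaining members these were Slc39a11 (0.91) and Lhfpl1 (0.90) for Acsl5, Nup85 and Dusp22 (both 0.86) for Acsbg1, Arl2bp (0.90) and Oca2 (0.89) for Acot1, Cflar (0.89) and Mx1 (0.84) for Acot2, and Usp3 (0.88) and Cd300c2 (0.87) for Acot7. The libraries share depth and tissue makeup, and the closest of so many genes are close in part by selection, so these values carry no test.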

How the data were processed

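RNA from the posterior eyecups of 15 mice was sequenced as paired ends after poly(A) selection with NEBNext libraries. The authors deposited raw counts of reads per gene for each library, without normalization, for 55421 Ensembl genes. The submitters' processing notes name FastQC 0.11.8, Trimmomatic 0.39, HISAT2 2.1.0, SAMtools, featureCounts 2.0.0 and GRCm38. The annotation release and strand setting are not given in the sources used here. Libraries were grouped by genotype from their titles.

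Symbols and positions came from GENCODE M21, which holds 55240 of the genes. Removing the 15% of genes lowest in variance left 47108, and filterByExpr then removed genes of low count, leaving 18979. Counts were fitted with edgeR 4.0.16 in R 4.3.3 (TMM scaling, robust quasi-likelihood test, all 15 libraries in one fit, Benjamini-Hochberg adjustment, threshold 0.05). log2 CPM used a prior count of 2. The fit was tested on simulated data. The floor of 3 counts is 0.15 to 0.28 CPM, for counting error only.

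The 9 genes and all lists were chosen with earlier results of these data known. Named genes are the 9 members, Tmem135, every gene of the 3 pathway lists called in a comparison, and for each member the 2 genes with the highest within-genotype correlation. Genes overlapping a member were named after their values were seen. The lists of other synthetases, thioesterases and binding proteins, and the marker lists, came from general knowledge.

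Alternatives were other scalings, DESeq2 1.42.0, limma-voom (limma 3.58.1), other filters, fits with only the genotypes compared, thinned counts, a GC offset, marker covariates, the replicate number as a block, and leaving out each library. No 2 libraries of a genotype matched within sampling noise (chi-square per gene 3.16 to 18.3). Each library is from a separate mouse. The authors' quantitative PCR, lipid and imaging measurements were not analysed here.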

Additional observations from a re-analysis of the deposited data

Results flagged for a closer look

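Within the groups, 2 of 27 sets of libraries held 1 library far from the others, where chance alone flags about 1 in 20. Acsl4 in FUN025/+ replicate 5 was at 52.7 CPM, beside 48.3 to 49.8 CPM in the other 5 libraries, a gap of 0.665 of the range where 0.625 is the 95% critical value. Acot1 in WT replicate 1 was at 22.9 CPM, beside 19.6 to 20.0 CPM in the other 3 libraries, a gap of 0.884 of the range against a critical value of 0.829. The cause was tested for neither.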

How the results depend on the processing

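Without each library in turn, 0 members were called between FUN025/+ and WT, 3 between FUN025/FUN025 and WT and 1 between the mutant genotypes, in all 15 fits. Acsl1, Acsl3 and Acsl4 then ranged over 0.33 to 0.39, 0.30 to 0.34 and 0.31 to 0.38 in FUN025/FUN025 against WT, and Acsl3 over 0.33 to 0.40 against FUN025/+. Of the other alternatives, 428 values kept direction and side of the threshold, 4 passed newly, 5 no longer passed and 19 turned direction. No difference that was called turned direction. The covariates of endothelium and of pigment epithelium, and the muscle covariate without WT replicate 2, were chosen after seeing the data.

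The number of members called changed to 1 (Acot7) with the rod covariate in FUN025/+ against WT, and in FUN025/FUN025 against WT to 1 with rod and muscle covariates, to 0 with the endothelial covariate to 4 with only the genotypes compared and with the rod covariate, where Acot7 joined, and to 4 with the pigment epithelium covariate, where Acsl6 joined at 0.34 (edgeR adjusted p = 8.23e-04). The cause was not tested. In FUN025/+ against WT, direction turned for Acsl3 with rod and muscle covariates (0.17) and with muscle without WT replicate 2 (0.037), for Acsl5 with the endothelial covariate (0.082), for Acsbg1 with thinned counts (0.019) and the GC offset (0.038), for Acot1 with muscle (-0.038), rod and muscle (-0.50) and muscle without WT replicate 2 (-0.12), and for Acot2 with library totals (-0.0034), no low-count filter (-0.0029), rod (-0.019), muscle (-0.081), both (-0.28) and muscle without WT replicate 2 (-0.078). In FUN025/FUN025 against WT it turned for Acsl5 with the endothelial covariate (0.14) and for Acot1 (-0.32) and Acot2 (-0.12) with rod and muscle, and against FUN025/+ for Acsl5 with the endothelial covariate (0.055). Without single libraries it turned in FUN025/+ against WT for Acsl5 (-0.058 to 0.016), Acsbg1 (-0.18 to 0.091), Acot1 (-0.0030 to 0.16) and Acot2 (-0.058 to 0.038), and for Acsbg1 in FUN025/FUN025 against WT (-0.57 to 0.065) and FUN025/+ (-0.52 to 0.11).

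Same-numbered mice are different animals and do not deviate together (mean r of -0.25, -0.067 and 0.055 in the 3 comparisons). With the replicate block, Acsl1, Acsl3 and Acsl4 were called at 0.35, 0.31 and 0.32 against WT and Acsl3 at 0.36 against FUN025/+, no member call changed, and Acsl5 in FUN025/+ against WT turned to 0.014. Over all genes the block called 2010, 2137 and 80, where 2600, 2666 and 99 were called without it. Counts over all genes fell to 1364 with the muscle covariate and 265 with rod and muscle in FUN025/+ against WT, to 675 with rod and muscle and 766 with the endothelial covariate in FUN025/FUN025 against WT, and to 538 and 1028 with muscle without WT replicate 2. Between the mutant genotypes they were 171 with DESeq2 and 65 with the endothelial covariate. Without single libraries they ranged over 1446 to 2722, 1528 to 2701 and 68 to 110. Acsbg1 did not pass a filter of 10 counts in every library.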
